A study of Homo sapiens with 4 samples.

Results

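Expression of 9 tight junction genes was followed in A549 cells, an established human lung adenocarcinoma cell line, in which the membrane protein DCBLD2 had been targeted. The genes were found by their symbols among the 57905 genes of the deposited count table. All 9 were present once, and comprised the claudins CLDN1, CLDN2, CLDN3, CLDN4 and CLDN7, the membrane proteins OCLN and F11R, and the scaffolds TJP1 and TJP3. A mean level of at least 1 CPM (counts scaled to the library size) over the libraries was reached by 8 of the 9, and CLDN7 did not reach it. RNA was sequenced from 4 libraries, 1 for each condition, so differences could not be checked against replicates and p-values are not printed. What is compared below is these libraries and not the conditions.

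The DCBLD2 overexpression line was infected with lentivirus made in 293T cells, carried the human DCBLD2 coding sequence in pLV-EF1-MCS-IRES-Bsd and was selected with blasticidin. The vector line was its empty-vector control. The shDCBLD2 line carried a hairpin against DCBLD2 in pLV-H1-EF1α-puro, and the scramble control line served as its control. Drug selection of the hairpin and scramble lines, and the backbone of the scramble line, are not stated in the sources used here. Which of the designed hairpins the sequenced shDCBLD2 line carried is not stated in the sources used here. Whether any line was a single clone is not stated either.

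Tight junctions seal the space between neighbouring epithelial cells. Claudins form the strands that close this space and set which ions pass, some as barriers and some as channels. Occludin and the junctional adhesion molecules lie beside them, and the zonula occludens scaffolds tie the strands to actin. In lung epithelium these junctions keep fluid out of the air spaces, and their loss is a known part of epithelial-mesenchymal transition.

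Totals of counts on genes ran from 16601633 to 21537283 per library, and the largest was 1.30 times the smallest. DCBLD2 had 9859 counts in scramble control, 4259 in shDCBLD2, 7970 in vector, with 4000 in the library labelled DCBLD2 overexpression. It was therefore lower in shDCBLD2 than in its control, with a log2 ratio of -1.35. Vector also exceeded the library labelled DCBLD2 overexpression, whose log2 ratio was -0.84, which goes against the label. All 12 of a list of genes abundant in A549 were above 3 counts in every library. Alveolar type II-like markers were above 3 counts for 3 of 10 genes in each library except the one labelled DCBLD2 overexpression, where 7 of 10 were. SFTPA1 was at 0 counts in all of them. Of those 7, all but ABCA3 had only 4 to 13 counts there. ABCA3 had 1926 counts in scramble control, 1797 in shDCBLD2, 1851 in vector and 2495 there. SFTPC went the other way, with 11, 3, 6 and 2 counts in the same order. Fibroblast-like markers, a possible sign of other cells, were above 3 counts for 6 to 9 of 11 genes, with FAP at 0 counts throughout. They summed to 39.4 CPM in scramble control, 60.9 in shDCBLD2, 46.6 in vector, with 86.9 in the library labelled DCBLD2 overexpression. COL1A1 made up most of each sum, at 32.7, 54.0, 35.5 and 63.1 CPM in the same order. THY1 was highest in vector, at 8.72 CPM. COL1A2 had 17, 1, 0 and 67 counts and POSTN 0, 0, 0 and 42 in that order. Blood-like markers were above 3 counts for 2 or 3 of 10 genes, with PTPRC at 0 counts throughout. Endothelial-like markers were above 3 counts for 1 or 2 of the 7 found. HEK293-like markers were above 3 counts for 7 or 8 of 10 genes and summed to between 237 and 423 CPM. The sum hides opposite directions. PEG10 was highest in shDCBLD2, at 345 CPM, and lowest in the library labelled DCBLD2 overexpression, at 81.2 CPM. NEFM had 1 count in scramble control, 4 in shDCBLD2 and 0 in vector, with 221 in the library labelled DCBLD2 overexpression. The part of all these markers in the results below was not tested.

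The upstream sequences of the members that shared a pattern over the libraries are given here, since CLDN3, CLDN4 and TJP3 ran through the 4 libraries in the same order. CLDN7 is added because its window held more E-box matches than that of any other member. RefSeq windows on GRCh38.p14 run from 250 bases before to 50 bases after an annotated start, and 8 of the 9 members matched the table, with 15 windows between them. F11R had no entry. Capitals mark CAGGTG or its reverse complement CACCTG, the E-box to which the repressors SNAI1, SNAI2 and ZEB1 are known to bind. The sequences are written 5′ to 3′ on the strand of the gene.
CLDN3, chr7:73770221-73770520, minus strand: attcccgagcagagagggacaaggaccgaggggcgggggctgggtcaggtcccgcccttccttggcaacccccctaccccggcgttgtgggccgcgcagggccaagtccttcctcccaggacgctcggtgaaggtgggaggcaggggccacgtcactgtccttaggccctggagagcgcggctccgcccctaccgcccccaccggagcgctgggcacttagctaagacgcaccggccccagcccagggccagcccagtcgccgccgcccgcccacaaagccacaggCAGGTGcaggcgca
CLDN4, chr7:73830746-73831045, plus strand: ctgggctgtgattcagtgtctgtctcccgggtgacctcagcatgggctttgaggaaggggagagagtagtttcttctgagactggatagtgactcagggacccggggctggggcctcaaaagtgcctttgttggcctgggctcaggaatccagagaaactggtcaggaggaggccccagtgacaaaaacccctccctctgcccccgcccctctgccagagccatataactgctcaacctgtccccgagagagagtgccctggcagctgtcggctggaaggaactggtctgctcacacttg
TJP3, the second of its windows, chr19:3721487-3721786, plus strand: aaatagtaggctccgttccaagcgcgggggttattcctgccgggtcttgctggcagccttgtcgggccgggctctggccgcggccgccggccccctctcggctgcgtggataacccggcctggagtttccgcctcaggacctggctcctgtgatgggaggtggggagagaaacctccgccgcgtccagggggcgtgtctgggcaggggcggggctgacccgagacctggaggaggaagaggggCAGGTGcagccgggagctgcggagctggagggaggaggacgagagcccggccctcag
CLDN7, the second of its windows, chr17:7262429-7262728, minus strand: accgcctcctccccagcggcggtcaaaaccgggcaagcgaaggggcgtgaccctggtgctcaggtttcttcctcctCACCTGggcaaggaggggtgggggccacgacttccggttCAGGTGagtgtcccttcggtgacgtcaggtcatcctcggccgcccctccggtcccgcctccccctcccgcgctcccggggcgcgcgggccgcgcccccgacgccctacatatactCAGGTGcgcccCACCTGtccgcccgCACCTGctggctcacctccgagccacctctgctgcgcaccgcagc

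CAGGTG in either direction occurred in 6 of the 15 windows, belonging to CLDN3, CLDN7, OCLN, TJP1 and TJP3. Over all 35116 RefSeq windows of the same length, 20.6% held it. The CLDN7 window above held 5 matches, a number reached in 33 of all windows (0.0940%), and the CLDN4 window held none. The letters AACCGG or CCGGTT, which occur in sites of grainyhead-like factors, were found in 3 windows, of CLDN1, CLDN7 and OCLN, against 7.23% of all windows. CLDN3 and TJP3, which were lower in shDCBLD2, thus shared the E-box letters with OCLN and TJP1, which were not called there. A match is only a match of letters, and no binding was measured.

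Levels of the claudins differed widely per exonic length. In FPKM, the deposited unit that corrects for exonic length and library size, CLDN2 led in every library, followed by CLDN1. CLDN2 took 75.3% of the summed FPKM of 23 claudins in scramble control and 73.6% in the library labelled DCBLD2 overexpression, but 51.5% in shDCBLD2 and 46.2% in vector. CLDN1, a barrier-forming claudin, took 12.9%, 8.77%, 30.6% and 27.4% in the same order of libraries. The summed claudin FPKM itself was 163 in scramble control, 76 in shDCBLD2, 90.2 in vector, with 193 in the library labelled DCBLD2 overexpression. The share of CLDN1 was thus high in the libraries in which CLDN2 was low, while the CPM of CLDN1 itself ranged over 1.47-fold. CLDN3 took between 3.32% and 11.04%, and CLDN4 between 0.75% and 3.18%. The number of claudins above 3 counts was 12 in each library except vector, where it was 14.

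**Figure D1:**
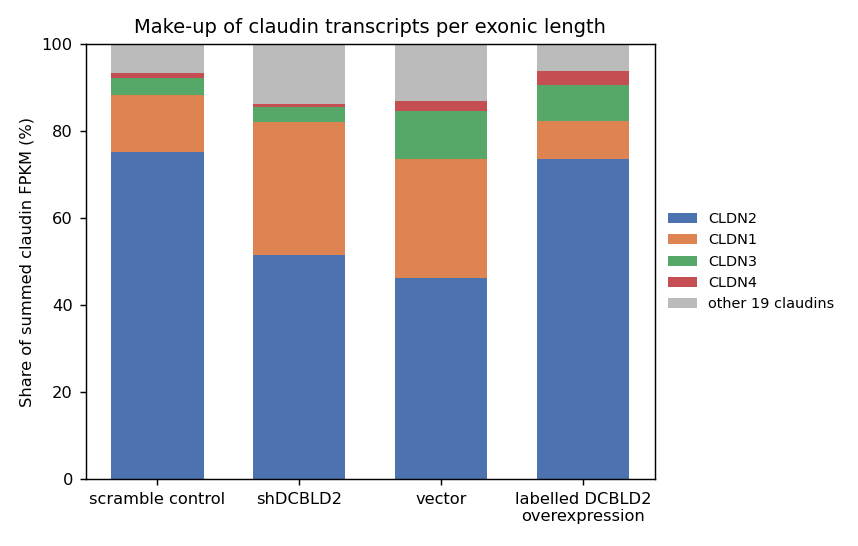
Stacked bars give the share in percent of the summed FPKM of 23 claudins in each library, with CLDN2, CLDN1, CLDN3 and CLDN4 apart and the other 19 claudins in grey. CLDN2 holds 75.3% and 73.6% in scramble control and in the library labelled DCBLD2 overexpression, against 51.5% and 46.2% in shDCBLD2 and vector.

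Which tight junction transcripts differed between the library labelled DCBLD2 overexpression and vector was asked first. CLDN2, CLDN4 and TJP3 were at least 2-fold higher, F11R and CLDN3 were higher by less than 2-fold, TJP1 and CLDN1 were lower by less than 2-fold, and OCLN differed by no more than counting error. Called genes are those at least 2-fold apart whose 95% interval (exact Clopper-Pearson, counting error only) excluded no change. By that rule 3 of the 8 members past the filter were called higher and 0 lower. Of all 13966 genes past the filter, 6.39% were called higher and 5.29% lower, or 11.7% in either direction. The median log2 ratio was 0.72 over these 8 members and -0.04 over all genes. Vector held more DCBLD2 transcript than this library, against the label, so each direction here is one between libraries as labelled. In RNA of whole cultures, fewer cells with a transcript and less of it per cell cannot be told apart.

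Which of them differed between shDCBLD2 and scramble control was asked next. CLDN2, CLDN3, CLDN4 and TJP3 were at least 2-fold lower, F11R was lower by less than 2-fold, CLDN1 was slightly higher, and OCLN and TJP1 differed by no more than counting error. By the same rule 4 of the 8 members were called lower and 0 higher, against 5.65% of all genes called lower and 1.17% called higher, or 6.82% in either direction. The median log2 ratio was -0.93 over the 8 members and 0.01 over all genes. The 12 genes drawn up as abundant in A549 summed to 21960 CPM in shDCBLD2 and 33761 CPM in scramble control. They summed to 32649 CPM in the library labelled DCBLD2 overexpression and 28994 CPM in vector. Against the sum, KRT7 was higher in shDCBLD2 than in scramble control, with a log2 ratio of 0.29. Several genes also went against the higher sum of the library labelled DCBLD2 overexpression. Its log2 ratios against vector were -0.73 for ALDH1A1, -0.64 for GDF15, -0.33 for AKR1C2, -0.22 for KRT7 and -0.06 for AKR1B10. The part of these 12 genes in the members' ratios was not tested.

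With the control libraries exchanged, 4 members were called higher and 1 lower in the library labelled DCBLD2 overexpression, namely CLDN3, CLDN4, TJP3 and F11R higher and TJP1 lower, and CLDN2 was not called. Of all genes, 8.06% were then called higher and 8.96% lower. In shDCBLD2, CLDN3, CLDN4 and TJP3 were called lower and 0 members higher, against 8.02% and 2.23% of all genes in these directions, and CLDN2 was not called.

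Called higher in the library labelled DCBLD2 overexpression and lower in shDCBLD2 were 3 members, CLDN2, CLDN4 and TJP3. Of all genes, 304 (2.18%) were called in both of these directions. These comparisons share no library. The control libraries were also set against each other, although they are controls of separate constructs and not replicates. In vector against scramble control, 1 of the 8 members, CLDN2, was called lower and 0 were called higher, against 1.89% of all genes called lower and 2.21% called higher, or 4.1% in either direction. The median log2 ratio between the controls was 0.23 over the 8 members and -0.01 over all genes.

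CLDN2, a claudin that forms channels for cations and water, had 7973 counts in scramble control, 2877 in shDCBLD2, 2660 in vector, with 8058 in the library labelled DCBLD2 overexpression. The corresponding levels were 408, 133, 145 and 488 CPM. It was high in scramble control and in the library labelled DCBLD2 overexpression, and low in shDCBLD2 and vector. The log2 ratio was 1.75 (1.69 to 1.82) for the library labelled DCBLD2 overexpression against vector. For shDCBLD2 against scramble control it was -1.61 (-1.67 to -1.55). The controls differed by almost as much, with a log2 ratio of -1.49 (-1.56 to -1.43) for vector against scramble control. Both calls therefore rested on the control library that was used. Against scramble control the library labelled DCBLD2 overexpression was higher by a log2 ratio of only 0.26 (0.22 to 0.31), and against vector the log2 ratio of shDCBLD2 was -0.12 (-0.20 to -0.04). CLDN2 lies on chromosome X from 106143394 to 106174091 on the plus strand, in the deposited coordinates, and overlaps MORC4 on the other strand. MORC4 had 3574, 4079, 3627 and 1480 counts in the same order, log2 ratios of -1.14 in the library labelled DCBLD2 overexpression against vector and 0.05 in shDCBLD2 against scramble control. Whether counting used the strand is not given in the sources used here, and without strand the reads of overlapping genes cannot be told apart.

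CLDN3 and CLDN4, both barrier-forming claudins and the receptors of a Clostridium enterotoxin, lie side by side on chromosome 7. In the deposited coordinates CLDN3 runs from 73183328 to 73184600 on the minus strand and CLDN4 from 73213872 to 73247014 on the plus strand, with 29272 bases between them. CLDN3 had 163 counts in scramble control, 69 in shDCBLD2, 237 in vector, with 331 in the library labelled DCBLD2 overexpression, or 8.33, 3.20, 12.9 and 20.1 CPM. CLDN4 had 158, 58, 176 and 479 counts in the same order, or 8.08, 2.69, 9.59 and 29.02 CPM. Both genes were lowest in shDCBLD2 and highest in the library labelled DCBLD2 overexpression. In shDCBLD2 against scramble control their log2 ratios were close, at -1.35 (-1.81 to -0.97) for CLDN3 and -1.55 (-2.05 to -1.14) for CLDN4. In the library labelled DCBLD2 overexpression against vector they were further apart, at 0.63 (0.39 to 0.88) for CLDN3 and 1.59 (1.35 to 1.86) for CLDN4, and these intervals did not overlap. CLDN3 also differed between the controls, with a log2 ratio of 0.63 (0.34 to 0.93) for vector against scramble control, whereas that of CLDN4 was 0.24 (-0.07 to 0.57). With the other control library, CLDN4 had log2 ratios of 1.83 and -1.80 and CLDN3 of 1.26 and -1.98, for the library labelled DCBLD2 overexpression and for shDCBLD2 in turn. The nearest gene past the filter on the far side of CLDN4, WBSCR27, had a log2 ratio of -0.88 in shDCBLD2 against scramble control and 0.08 in the library labelled DCBLD2 overexpression against vector. ABHD11, on the far side of CLDN3, had log2 ratios of 0.17 and 0.19.

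CLDN1 (chromosome 3, 190023490 to 190040264, minus strand), a main barrier claudin of epithelia, had 1464 counts in scramble control, 1833 in shDCBLD2, 1691 in vector, with 1031 in the library labelled DCBLD2 overexpression. The levels were 74.8, 85.0, 92.1 and 62.5 CPM. It was lowest where CLDN2, CLDN3 and CLDN4 were highest, within a narrow range of 1.47-fold over the libraries. The log2 ratio was -0.56 (-0.67 to -0.45) for the library labelled DCBLD2 overexpression against vector and 0.18 (0.08 to 0.28) for shDCBLD2 against scramble control. The controls differed by 0.30 (0.20 to 0.40) on the log2 scale. With the other control library the shDCBLD2 ratio changed sign, to -0.12.

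CLDN7, a claudin of the basolateral membrane in many epithelia, was near the limit of detection, with 11 counts in scramble control, 3 in shDCBLD2, 25 in vector, with 21 in the library labelled DCBLD2 overexpression. Its intervals were wide, with a log2 ratio of -1.48 (-4.50 to -0.09) for shDCBLD2 against scramble control and -0.09 (-1.01 to 0.80) for the library labelled DCBLD2 overexpression against vector. The difference between vector and the library labelled DCBLD2 overexpression was not detectable at this depth. The gene (chromosome 17, 7163222 to 7167302, minus strand) overlaps ELP5 on the other strand, which had between 1335 and 1644 counts per library. It was not counted among the members called.

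Among the other membrane proteins, F11R (chromosome 1, 160965001 to 160991138, minus strand) encodes the junctional adhesion molecule JAM-A. It had 392 counts in scramble control, 302 in shDCBLD2, 428 in vector, with 679 in the library labelled DCBLD2 overexpression, or 20.04, 14.0, 23.3 and 41.1 CPM. The order was that of CLDN3 and CLDN4 over a narrower range, 2.94-fold against 6.27-fold and 10.8-fold. Its log2 ratio was 0.82 (0.64 to 1.00) for the library labelled DCBLD2 overexpression against vector and -0.51 (-0.74 to -0.30) for shDCBLD2 against scramble control, both short of 2-fold. The controls differed by 0.22 (0.02 to 0.42). OCLN (chromosome 5, 68788119 to 68853931, plus strand) encodes occludin, which regulates junction assembly. It had 171 counts in scramble control, 176 in shDCBLD2, 176 in vector, with 140 in the library labelled DCBLD2 overexpression, or 8.74, 8.16, 9.59 and 8.48 CPM. In none of the 6 pairs of libraries did the OCLN interval exclude no change. Its log2 ratio was -0.17 (-0.51 to 0.15) for the library labelled DCBLD2 overexpression against vector and -0.10 (-0.41 to 0.21) for shDCBLD2 against scramble control, so a 2-fold difference lies outside both intervals. OCLN lies in a duplicated part of chromosome 5, and how the authors' counting divided reads shared with partial copies is not given.

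The scaffolds TJP1 and TJP3, known as ZO-1 and ZO-3, did not move together. TJP1 (chromosome 15, 29991571 to 30261068, minus strand) had 3166 counts in scramble control, 3429 in shDCBLD2, 2046 in vector, with 1082 in the library labelled DCBLD2 overexpression, or 162, 159, 111 and 65.6 CPM. The library labelled DCBLD2 overexpression held the least, and its log2 ratio against vector was -0.76 (-0.87 to -0.66). In shDCBLD2 against scramble control the ratio was -0.03 (-0.10 to 0.04). The controls differed by -0.54 (-0.62 to -0.46), and against scramble control the library labelled DCBLD2 overexpression was lower by more than 2-fold, at -1.30 on the log2 scale. With vector as its control, the log2 ratio of shDCBLD2 was 0.51.

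TJP3 (chromosome 19, 3708107 to 3750811, plus strand), the scaffold most restricted to epithelia, had 110 counts in scramble control, 17 in shDCBLD2, 160 in vector, with 398 in the library labelled DCBLD2 overexpression. The levels were 5.62, 0.788, 8.72 and 24.1 CPM. TJP3 had the widest range of the 8 members past the filter, 30.6-fold between the lowest and the highest library, followed by CLDN4 at 10.8-fold, CLDN3 at 6.27-fold and CLDN2 at 3.66-fold. The log2 ratio was 1.46 (1.20 to 1.74) for the library labelled DCBLD2 overexpression against vector and -2.69 (-3.67 to -2.09) for shDCBLD2 against scramble control. Only 57 of all genes past the filter, TJP3 included, had a ratio this low in shDCBLD2 (0.408%). With the other control library both log2 ratios were larger in size, at 2.08 and -3.31. Per exonic length TJP1 exceeded TJP3 in each library, with 14.61, 14.04, 9.64 and 5.75 FPKM for TJP1 and 1.35, 0.19, 2.01 and 5.63 FPKM for TJP3. Their FPKM values were nearly equal in the library labelled DCBLD2 overexpression.

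For each member the log2 ratio of shDCBLD2 against scramble control was subtracted from that of the library labelled DCBLD2 overexpression against vector. The difference was 4.15 (3.36 to 4.93) for TJP3, 3.36 (3.27 to 3.45) for CLDN2, 3.14 (2.64 to 3.64) for CLDN4, 1.99 (1.51 to 2.46) for CLDN3 and 1.33 (1.05 to 1.61) for F11R. It was below 0 for CLDN1, at -0.74 (-0.89 to -0.59), and for TJP1, at -0.74 (-0.87 to -0.61). For OCLN the interval included 0, at -0.08 (-0.52 to 0.36), as it did for CLDN7, at 1.39 (-0.63 to 3.41). TJP3, CLDN4, CLDN3 and F11R shared the order library labelled DCBLD2 overexpression, vector, scramble control, shDCBLD2 from highest to lowest. In that order the vector and scramble control values of CLDN4 were not separated beyond counting error, and neighbours were separated for TJP3, CLDN3 and F11R. Ratios between the controls also ran with GC content, as given below.

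The genes past 5 CPM on average whose levels ran most like TJP3 over the 4 libraries were ABCG1, IFITM1 and HLA-DMB, at Euclidean distances of 0.420, 0.513 and 0.524 between centred log2 levels. ABCG1, a cholesterol transporter, had 104, 19, 117 and 368 counts in scramble control, shDCBLD2, vector and the library labelled DCBLD2 overexpression. The genes most like CLDN4 were LINC00086, CXCL1 and FBLN5, at distances of 0.277, 0.292 and 0.307. CXCL1, a neutrophil-attracting chemokine, had 876, 389, 1142 and 2466 counts in the same order. With 4 points per gene such likeness is a description only.

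The library labelled DCBLD2 overexpression also differed from vector along the GC content of transcripts. The median log2 ratio over all genes was -0.63 in the bin of lowest GC content of 20 and reached 0.30 in a GC-rich bin, whereas in shDCBLD2 against scramble control the bins of lowest and highest GC content were at 0.14 and -0.08. Of the 8 members past the filter, the 3 with ratios below 0 had the transcripts of lowest GC content, 39.9% for OCLN, 41.5% for CLDN1 and 44.8% for TJP1, against 47.6% for F11R, 52.6% for CLDN2, 57.5% for CLDN4, 63.2% for TJP3 and 69.2% for CLDN3. After the median of genes of like GC content was subtracted, CLDN2 was at 1.60, CLDN4 at 1.33 and TJP3 at 1.16 in that comparison, so each stayed past 2-fold. F11R was then at 0.91, CLDN3 at 0.35 and TJP1 at -0.45, and CLDN1 fell close to its bin, at -0.08. OCLN changed sign, to 0.36. In shDCBLD2 against scramble control the same step left TJP3 at -2.60, CLDN2 at -1.54, CLDN4 at -1.44 and CLDN3 at -1.27. Between the controls the medians also ran with GC content, from -0.13 in the lowest bin to 0.32 in the highest. There the GC subtraction took CLDN3 from 0.63 to 0.31, TJP3 from 0.62 to 0.41, CLDN4 from 0.24 to 0.16 and F11R from 0.22 to 0.30. The control ratios also ran with exonic size, from a median of 0.25 in the bin of shortest genes to -0.32 in that of the longest. The control difference of TJP1, a long gene, went from -0.54 to -0.30 when the median of genes of like size was subtracted.

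The rest of the pathway was described with 88 other genes in 7 lists, of which 61 reached the CPM minimum. Of these, 8 were called higher (13.1%) and 5 lower (8.20%) in the library labelled DCBLD2 overexpression against vector, with a median log2 ratio of 0.00. Of all genes, 6.39% and 5.29% were called in these directions. In shDCBLD2 against scramble control 1 was called higher (1.64%) and 6 lower (9.84%), with a median of -0.12, against 1.17% and 5.65% of all genes. Between the controls 2 were called higher and 4 lower (3.28% and 6.56%), against 2.21% and 1.89% of all genes. With the control libraries exchanged, further list genes were called. JAM3 was then higher in the library labelled DCBLD2 overexpression, at 1.06, and MPDZ, ROCK1, ROCK2 and ZEB1 were lower, at -1.10, -1.19, -1.61 and -1.53. In shDCBLD2, SNAI1 was then higher, at 1.30, and CLDND2, PARD6A and TWIST2 were lower, at -1.12, -1.09 and -1.39. Where log2 ratios are given as a pair below, the first is that of the library labelled DCBLD2 overexpression against vector and the second that of shDCBLD2 against scramble control.

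Of the other claudins and claudin domain proteins, 6 of 20 passed the filter. Against vector, the library labelled DCBLD2 overexpression had 0 called higher and 1 lower, the low-count CLDND2 with 21 against 52 counts and a log2 ratio of -1.09 (-1.96 to -0.40). In shDCBLD2 against scramble control 0 of the 6 were called. CLDN12, the most abundant other claudin by CPM, had 257 counts in scramble control, 375 in shDCBLD2, 391 in vector, with 293 in the library labelled DCBLD2 overexpression, with log2 ratios of -0.26 and 0.40. With scramble control in place of vector CLDND2 was not called in the library labelled DCBLD2 overexpression, at -0.74.

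Of the other tight junction membrane proteins, 6 of 11 passed and 1 was called. LSR, the angulin of tricellular contacts, had 226 counts in scramble control, 174 in shDCBLD2, 200 in vector, with 700 in the library labelled DCBLD2 overexpression. Its log2 ratio was 1.95 (1.73 to 2.19) for the library labelled DCBLD2 overexpression against vector and -0.51 (-0.81 to -0.23) for shDCBLD2 against scramble control. JAM3, a relative of F11R, had log2 ratios of 0.69 and 0.27, the second with an interval that included no change.

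Of the other scaffolds, 11 of 12 passed, and in the library labelled DCBLD2 overexpression against vector 2 were called higher and 1 lower. CGN, the cytoplasmic plaque protein cingulin, had 103 counts in scramble control, 77 in shDCBLD2, 114 in vector, with 232 in the library labelled DCBLD2 overexpression, and log2 ratios of 1.16 (0.85 to 1.51) and -0.55 (-1.01 to -0.12). CGN was thus higher in the first comparison, as TJP3 was, while TJP1 was lower. The call of CGN was lost after the GC subtraction, at 0.94. PALS1, listed under its older symbol MPP5, is a polarity scaffold and was lower, with 651, 847, 555 and 207 counts and log2 ratios of -1.26 (-1.51 to -1.04) and 0.24 (0.09 to 0.39). Its call was lost after the GC subtraction, at -0.79. SYMPK, the most abundant, lay between 240 and 257 CPM in all libraries, and in shDCBLD2 against scramble control 0 of the 11 scaffolds were called.

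Of the genes of the polarity complexes 11 of 13 passed. Only PARD3 was called, lower in the library labelled DCBLD2 overexpression against vector, whose product helps to place the junction. It had 3207 counts in scramble control, 3607 in shDCBLD2, 3346 in vector, with 1424 in the library labelled DCBLD2 overexpression, with log2 ratios of -1.08 (-1.17 to -0.99) and 0.03 (-0.04 to 0.10). Like TJP1, PARD3 was lowest in the library labelled DCBLD2 overexpression, and its ratio of shDCBLD2 to scramble control was within counting error of no change. The PARD3 call was lost against scramble control, at -0.93, and narrowly after subtraction of the median of genes of like exonic size. All 12 signalling adaptors passed and 0 were called in either of these comparisons, although ROCK1 and ROCK2, kinases that act on actomyosin, were called lower with scramble control in place of vector, as given above.

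Of the transcription and splicing regulators of epithelial genes, 9 of 14 passed the filter. Of these, 5 were called higher and 0 lower in the library labelled DCBLD2 overexpression against vector, with a median log2 ratio of 1.07. Of all genes, 6.39% and 5.29% were called in these directions. In shDCBLD2 against scramble control 0 were called higher and 5 lower, with a median of -1.02, against 1.17% and 5.65% of all genes. CDX2, an intestinal homeobox factor, had 16 counts in scramble control, 4 in shDCBLD2, 21 in vector, with 247 in the library labelled DCBLD2 overexpression, with log2 ratios of 3.58 (3.07 to 4.43) and -1.69 (-4.18 to -0.51). HNF4A, a liver and gut nuclear receptor, had 1467, 655, 512 and 967 counts, with log2 ratios of 1.07 (0.91 to 1.23) and -1.30 (-1.44 to -1.17). EHF, an epithelial Ets factor, had 140, 48, 53 and 103 counts, with log2 ratios of 1.08 (0.62 to 1.62) and -1.64 (-2.19 to -1.20). HNF4A and EHF were high in scramble control and low in vector, as CLDN2 was, with log2 ratios between these controls of -1.42 and -1.28. As with CLDN2, their calls rested on the control used. Against scramble control the library labelled DCBLD2 overexpression was at -0.36 for HNF4A and -0.19 for EHF, and against vector shDCBLD2 was at 0.12 and -0.36. GRHL1, a grainyhead-like factor, was at 13 to 38 counts and was at 1.55 (0.76 to 2.73) in the library labelled DCBLD2 overexpression against vector, but 0.65 against scramble control. ELF3, the most abundant of them, had a log2 ratio of -1.02 (-1.11 to -0.94) in shDCBLD2 against scramble control and 0.00 in the other comparison, and its call was lost with DESeq2 size factors, after thinning and after the GC subtraction. CDX2 kept both calls under each alternative setting tried for the ratios. However, it passed the filter only through the library labelled DCBLD2 overexpression, at 15.0 CPM, so its call there is not independent of the filter. Its levels were 0.818 CPM in scramble control, 0.185 in shDCBLD2 and 1.14 in vector. Its call in shDCBLD2 rested on 4 against 16 counts.

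The repressors of junction genes, 6 of 6 past the filter, were called in both directions. Against vector, 2 were called lower and 0 higher in the library labelled DCBLD2 overexpression, against 5.29% and 6.39% of all genes. In shDCBLD2 against scramble control 1 was called higher and 1 lower, against 1.17% and 5.65% of all genes. Between the controls 2 were called higher and 1 lower, against 2.21% and 1.89% of all genes. SNAI1, which encodes Snail, had 264 counts in scramble control, 497 in shDCBLD2, 171 in vector, with 71 in the library labelled DCBLD2 overexpression, with log2 ratios of -1.09 (-1.54 to -0.71) and 0.77 (0.55 to 0.99). SNAI1 was thus highest where CLDN3, CLDN4, TJP3 and F11R were lowest and lowest where they were highest. ZEB1 ran through the libraries in the same order as SNAI1, with 230 counts in scramble control, 299 in shDCBLD2, 127 in vector, with 66 in the library labelled DCBLD2 overexpression. SNAI2, ZEB2, TWIST1 and TWIST2 did not share this order, and TWIST1 was lowest in shDCBLD2. The part of these repressors in the levels of the members was not tested. TWIST2 had 178, 150, 338 and 107 counts and log2 ratios of -1.49 (-1.83 to -1.19) and -0.38 (-0.71 to -0.07), and was called higher between the controls, at 1.01. Against scramble control the TWIST2 call was lost, at -0.48. In shDCBLD2 against scramble control SNAI2, which encodes Slug, was called higher at 1.06 (0.70 to 1.47), and the low-count TWIST1 was called lower at -1.39 (-2.57 to -0.57), with 13 against 34 counts. For SNAI2 the library labelled DCBLD2 overexpression also exceeded vector, by a log2 ratio of 0.97 (0.36 to 1.68). That direction rested on the control used, since SNAI2 was called lower in vector against scramble control, at -1.23. SNAI2 was at 4.24 CPM in scramble control and 1.74 in vector. The library labelled DCBLD2 overexpression, at 3.51 CPM, was thus below scramble control. TWIST1 was called higher in vector against scramble control, at 1.01, a call lost with library totals. The SNAI2 call in shDCBLD2 was lost after thinning and after the GC subtraction, both at 0.97.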

How the data were processed

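RNA was measured in 4 libraries, 1 per condition, made from poly(A) RNA. The authors deposited raw read counts per gene and FPKM values, which are those counts relative to exonic kilobases and to the library's total on genes. The aligner, counting program, annotation and use of strand are not given in the sources used here. The submitters' processing notes name mm9, a mouse build, although gene identifiers and symbols are human, and the build of the deposited coordinates is not named. All sample columns were mapped (0 were not), and 57905 genes were read.

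Counts were scaled with TMM factors over the 4 libraries (0.981 to 1.02) from edgeR 4.0.16 in R 4.3.3. Size factors from DESeq2 1.42.0 were an alternative. Python 3.11.15 was used for the rest, with matplotlib 3.10.9, pandas 2.3.3, scipy 1.17.1 and numpy 2.4.6. A prior count of 2 was added for log2 ratios, and the 13966 genes averaging at least 1 CPM entered the summaries. Intervals of 95% are exact Clopper-Pearson on the share of 2 raw counts, exact Poisson for levels and Wald for a difference of ratios. PCR reads without molecular identifiers are not independent molecules, so intervals and the floor of 3 counts cover counting error only. The scripts were tested on simulated data.

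The members and gene lists were chosen with earlier results of these data known. Named genes are the 9 members, DCBLD2, from each list the genes called in a main comparison (at most 3 per list and comparison) and the 2 of highest mean CPM, overlapping or nearest genes, and the 3 genes most alike to each of the 2 members of widest range. List genes called only with the control libraries exchanged were named after their values were seen. Only some are printed, and some list genes counted among the calls are not reported here by name. Of the 88 list genes 3 were found under an older symbol. The list here called regulators of epithelial genes was drawn up as activators of junction genes and holds splicing factors too. GC content was that of the longest GENCODE 29 transcript, found for 13690 genes (98.0%). The GC and exonic size alternatives were chosen after seeing the data. Promoter sequences were copied from RefSeq windows (GRCh38.p14). Protein sequences were not used here.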

Additional observations from a re-analysis of the deposited data

How the results depend on the processing

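With the other control library, which was scramble control for the library labelled DCBLD2 overexpression and vector for shDCBLD2, the CLDN7 log2 ratio of the library labelled DCBLD2 overexpression reversed to 1.04. Over the member ratios and all their alternatives, 207 in all, 183 stayed within the counting interval of the reported ratio and 5 changed sign. The sign changed for CLDN7 against scramble control, as above, and after thinning (0.05), for OCLN after the GC subtraction (0.36), and in shDCBLD2 against vector for CLDN1 (-0.12) and TJP1 (0.51). The causes were not tested. For the library labelled DCBLD2 overexpression, a 1.5-fold threshold called 1788 of all genes higher and 2481 lower, 14 list genes each way, and 5 members higher and 1 lower. The other control called 1125 of all genes higher and 1252 lower, 4 list genes higher and 6 lower and 1 member, TJP1, lower. Without a filter 1869 of all genes were called higher and 8 list genes lower. A mean CPM of at least 5 left 339 of all genes higher, 492 lower and 5 list genes higher, since fewer genes were tested. Subtraction of the median of genes of like GC content left 283 of all genes lower. For shDCBLD2, a 1.5-fold threshold called 690 of all genes higher and 1621 lower, and 3 list genes higher and 14 lower. The other control called 312 of all genes higher and 1120 lower, and 2 list genes higher and 6 lower, no filter gave 419 higher and 1278 lower of all genes, and a mean CPM of at least 5 gave 61 higher and 338 lower, with 0 list genes higher and 3 lower. Thinning to the smallest library and the GC subtraction each left 0 list genes higher. For vector against scramble control, a 1.5-fold threshold called 987 of all genes higher and 932 lower, 4 list genes higher and 13 lower, and 2 members higher. No filter gave 593 higher and 524 lower, with 1 member, CLDN7, higher. A mean CPM of at least 5 gave 96 higher and 84 lower of all genes, and 1 list gene higher and 2 lower. There 0 list genes were higher with library totals, a prior count of 5, or the GC or exonic size subtraction, and 1 after thinning.

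No paired analysis was possible because each condition has 1 library. Depth limits CLDN7, CDX2, TWIST1, GRHL1, CLDND2 and TJP3, which rest on few counts in at least 1 library. TJP3 had 17 counts in shDCBLD2, the lower end of its 30.6-fold range.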
